A study of Mus musculus with 26 samples.

Results

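Transcripts of 10 genes of iron handling and of the defence against ferroptosis were followed across mouse liver tumours and control livers: Gpx4, Aifm2, Acsl4, Fth1, Ftl1, Tfrc, Tfr2, Slc40a1, Hamp and Trf. They were taken by symbol from a table of reads per gene, where each had 1 of the 35976 entries. Bulk RNA sequencing had been made of 20 tumour libraries from 15 animals and of 6 control livers. Cyp1a2_CA tumours (10 libraries from 9 animals) came from mice with Cyp1a2-CreERT2, Ctnnb1(ex3)fl/+ and Arid2fl/fl, in which tamoxifen activates the Cre recombinase in cells that use the Cyp1a2 promoter. Cyp1a2 is a cytochrome P450 gene that pericentral hepatocytes express. Gls2_CA tumours (9 libraries from 5 animals) carried the same Ctnnb1 and Arid2 alleles with Gls2-CreERT2, which is driven by the promoter of a periportal glutaminase gene. The Cyp1a2_C group was 1 tumour library with Cyp1a2-CreERT2 and Ctnnb1(ex3)fl/+ and no Arid2 allele in its label. The Ctnnb1 allele loses the exon that marks beta-catenin for degradation, and Arid2 encodes a subunit of a chromatin remodelling complex. Tumour mice, of mixed C57BL/6J and Swiss Webster background, received tamoxifen on postnatal day 28 and were followed for 6 to 12 months. WT livers came from 6 C57BL/6J mice given an adeno-associated virus with Cre and kept on normal chow for up to 12 months. Genotype, strain, tamoxifen and the virus therefore changed together between tumours and WT livers and cannot be told apart.

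Hepatocytes take up iron bound to transferrin (Trf) through transferrin receptors, store it in ferritin cages of heavy (Fth1) and light (Ftl1) chains, and release it through ferroportin (Slc40a1), which the hepatocyte hormone hepcidin (Hamp) removes from the cell surface. Iron regulatory proteins bind a hairpin called the iron-responsive element when iron is scarce: in a 5′ untranslated region they block translation, and in the 3′ untranslated region of Tfrc they protect the messenger RNA from decay. Ferroptosis is a form of cell death in which iron drives the peroxidation of membrane lipids. The glutathione peroxidase Gpx4 and the ubiquinone reductase Aifm2, also called FSP1, oppose it, and the acyl-CoA synthetase Acsl4 supplies the polyunsaturated lipids that are oxidised.

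Library totals were 37051941 to 49254470 counts in Cyp1a2_CA, 36992043 to 42865787 in Gls2_CA, 41038144 in Cyp1a2_C and 13486530 to 16975288 in WT. Counts were summed over libraries that share an animal number, and levels are given as CPM, counts relative to library totals with trimmed-mean (TMM) scaling. Arid2, the targeted gene, had 25.7 to 36.6 CPM in Cyp1a2_CA, 24.1 to 46.8 CPM in Gls2_CA, 40.8 CPM in Cyp1a2_C and 60.5 to 72.8 CPM in WT. In 4 tumour libraries the level stood apart for Ttn, the titin gene of striated muscle, at 8668 to 30171 CPM, against at most 92.9 CPM in the other 16 tumour libraries and 2.21 CPM in WT; they were CAB44 and CAB225 of Cyp1a2_CA, GAB235 of Gls2_CA, and the Cyp1a2_C library CB6. CB6 also held 108 CPM of Xist beside 533 CPM of summed Y-linked transcripts (Ddx3y, Uty, Eif2s3y and Kdm5d), whereas Xist was at most 5.17 CPM in Cyp1a2_CA, 19.0 CPM in Gls2_CA and 2.15 CPM in WT. The summed CPM of 9 hepatocyte markers had a median of 26333 (13153 to 53852) in Cyp1a2_CA and 24267 (5330 to 31220) in Gls2_CA, was 545 in Cyp1a2_C, and had a median of 92288 (87136 to 108779) in WT; none of these markers was at 0. The summed markers of sinusoidal endothelium, all 6 of which were lower in both tumour groups, had medians of 102 CPM (55.9 to 153) in Cyp1a2_CA, 96.2 CPM (39.8 to 138) in Gls2_CA and 332 CPM (296 to 347) in WT. Of all genes tested against WT, 32.7% were called lower in Cyp1a2_CA and 34.0% in Gls2_CA. The 9 Kupffer cell and macrophage markers summed to medians of 121 CPM (67.7 to 231) in Cyp1a2_CA, 164 CPM (116 to 230) in Gls2_CA and 283 CPM (261 to 323) in WT. Short transcripts were lower as a class: the median log2 fold change of genes with at most 1000 exon bases was -1.01 in Cyp1a2_CA and -1.08 in Gls2_CA against WT, and that of genes with over 8000 bases was 1.27 and 1.24. In bulk tissue, fewer cells of a type and less RNA per cell cannot be told apart.

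Iron-responsive elements were searched in the reference transcripts of all 10 genes (GENCODE M21, GRCm38), because they mark which of the messenger RNAs are read by the iron regulatory proteins. The search asked for a C, 5 bases, the loop CAGTGN and 5 bases pairing with the first 5 on the sense strand, with G-T pairs and at most 1 mismatch allowed. A match was held by 4 members, Fth1, Ftl1 and Slc40a1 in the 5′ untranslated region and Tfrc at 4 places of the 3′ untranslated region, and 6 held none. Of coding transcripts with a 5′ untranslated region 0.632% held such a match in it, and of those with a 3′ untranslated region 3.14% did. Counted by gene, 6.53% of all genes held a match anywhere in a transcript. The 7 sites of 29 bases are shown 5′ to 3′ as DNA, with the 6-base loop in capitals.
Fth1, 5′ untranslated region, chr19:9982732-9982760, plus strand: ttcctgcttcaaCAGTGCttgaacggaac
Ftl1, 5′ untranslated region, chr7:45459779-45459807, minus strand: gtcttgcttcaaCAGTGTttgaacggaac
Slc40a1, 5′ untranslated region, chr1:45925465-45925493, minus strand: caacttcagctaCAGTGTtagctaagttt
Tfrc, 3′ untranslated region, chr16:32631219-32631247, plus strand: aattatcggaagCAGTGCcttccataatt
Tfrc, 3′ untranslated region, chr16:32631598-32631626, plus strand: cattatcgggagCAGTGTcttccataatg
Tfrc, 3′ untranslated region, chr16:32631663-32631691, plus strand: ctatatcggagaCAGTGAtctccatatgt
Tfrc, 3′ untranslated region, chr16:32631710-32631738, plus strand: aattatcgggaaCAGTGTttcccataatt
The stems of all 7 sites had 0 mismatched pairs. A match describes these letters and was not tested for binding.

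Among the 10 genes, the direct defenders Gpx4 and Aifm2, the lipid synthetase Acsl4 and the ferritin heavy chain Fth1 were higher in tumours of both drivers than in WT livers, whereas hepcidin, transferrin, the receptor Tfrc and the ferritin light chain Ftl1 were lower. Against WT, 5 members rose (these 4 and Tfr2) and 5 fell (those 4 and Slc40a1) in Cyp1a2_CA at an adjusted p under 0.05 by edgeR's quasi-likelihood test. Of all 16841 genes tested there, 70.9% passed, 38.3% higher and 32.7% lower, so a count of 10 among 10 members carries little by itself. In Gls2_CA 4 members rose, 4 fell and 2 did not pass (Slc40a1 and Tfr2), beside 73.2% of 14976 genes, 39.2% higher and 34.0% lower. The median log2 fold change of the members was -0.05 in Cyp1a2_CA and -0.06 in Gls2_CA, beside 0.17 and 0.14 over all genes tested. The 2 comparisons share the WT livers.

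**Figure D1:**
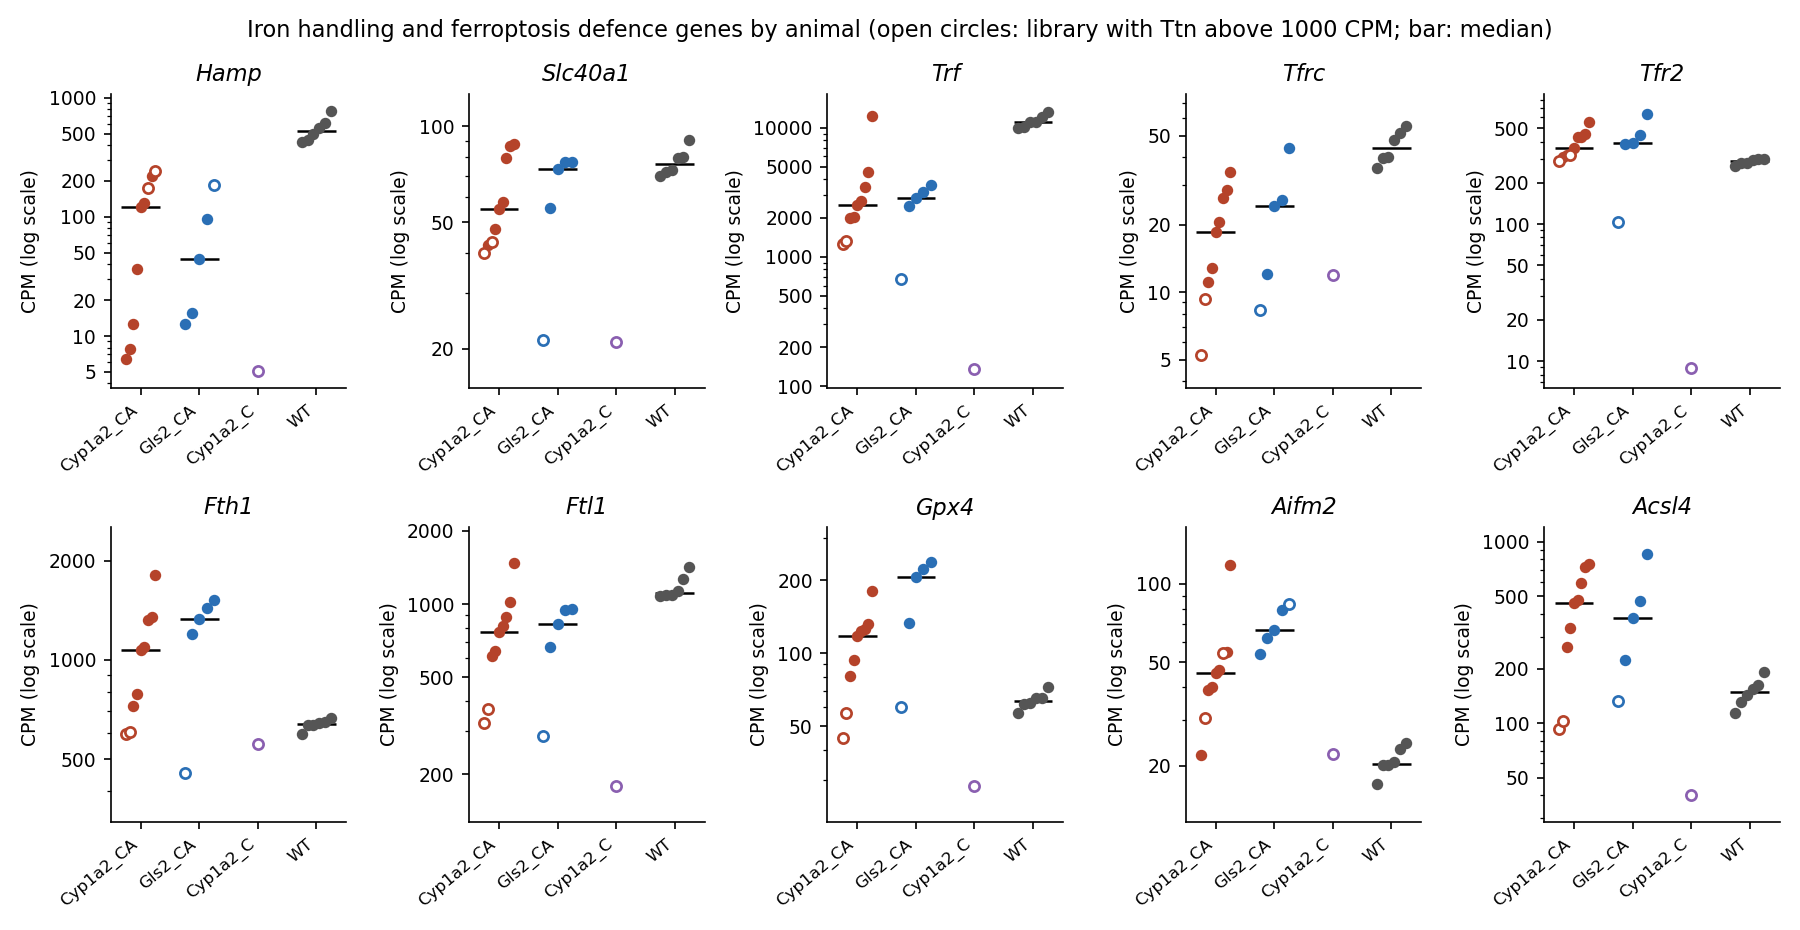
CPM on a log axis of each of the 10 genes in every animal of Cyp1a2_CA (9), Gls2_CA (5), Cyp1a2_C (1) and WT (6), with the group medians as lines and the 4 animals with Ttn above 1000 CPM as open symbols. Hamp lay below all WT livers in every tumour animal, while Gpx4 lay above them in 7 of 9 Cyp1a2_CA and 4 of 5 Gls2_CA animals.

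In the counts as deposited hepcidin had the largest fall of the members; with the offset described below, Trf (-1.66 and -2.13) lay lower than Hamp in both groups and Tfrc (-1.62) in Cyp1a2_CA. Hamp (chr7:30942368-30944032, minus strand) had 6.45 CPM in the lowest, 122 in the median and 242 in the highest Cyp1a2_CA animal, and 15.7, 12.7, 186, 44.3 and 95.6 CPM in the Gls2_CA animals GAB18, GAB229, GAB235, GAB242 and GAB294, against 423 in the lowest, 530 in the median and 775 in the highest WT liver. All 9 Cyp1a2_CA and all 5 Gls2_CA animals lay below the lowest WT liver, and such a complete separation in either direction occurred for 44.2% and 55.8% of the genes tested, with the tumours lower for 20.8% and 26.0%. The fall was 5.47-fold in Cyp1a2_CA, a log2 fold change of -2.45 (SE 0.69, edgeR adjusted p = 0.00500), and 8.06-fold in Gls2_CA, a log2 fold change of -3.01 (SE 0.67, edgeR adjusted p = 0.00153). The tumours differed widely among themselves, and 2 of the 3 highest Cyp1a2_CA animals, CAB44 (242 CPM) and CAB225 (175 CPM), and the highest of Gls2_CA, GAB235, were those with high Ttn. Without these animals the log2 fold change was -2.96 in Cyp1a2_CA and -3.83 in Gls2_CA. At 410 exon bases Hamp is among the short transcripts. With an offset for exon length and GC content its log2 fold change was -1.48 in Cyp1a2_CA (edgeR adjusted p = 0.0676) and -1.60 in Gls2_CA (edgeR adjusted p = 0.0537), so the call did not hold there.

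Separate libraries of an animal also differed. In GAB294, Hamp had 238 CPM in library S, 2.92 in M1 and 43.7 in M2, a wider range than that between the 5 Gls2_CA animals. GAB242 had 40.1, 43.7 and 46.7 CPM in its 3 libraries, and CAB28 had 76.9 CPM in library S and 153 in library L. The labels do not explain these letters. Within 1 animal the spread of Hamp was therefore wide in GAB294 and narrow in GAB242.

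Hamp2, a near-identical neighbouring copy of Hamp in the mouse, was low in the same tumours, with 0.0796 CPM in the lowest, 0.687 in the median and 10.9 in the highest Cyp1a2_CA animal, 0.163 to 5.09 CPM in Gls2_CA, 0.0900 CPM in Cyp1a2_C and 16.6 to 61.4 CPM in WT. It fell by 4.06 on the log2 scale in Cyp1a2_CA (edgeR adjusted p = 0.000843) and by 4.69 in Gls2_CA (edgeR adjusted p = 0.000922), and without CAB44 and without GAB235 the log2 fold changes were -5.29 and -6.60. How the authors' counting treated reads that fit both copies is not known, so the share of each is uncertain. The 250 bases before the start of both genes are shown because they moved together and because the motifs known for hepcidin control lie there. Capitals mark GGCGCC, the core of the element that SMAD proteins bind downstream of bone morphogenetic protein (BMP), and TTCNNNGAA, the element of STAT factors downstream of interleukin 6 (RefSeq, GRCm38.p6).
Hamp, chr7:30944030-30944279, minus strand: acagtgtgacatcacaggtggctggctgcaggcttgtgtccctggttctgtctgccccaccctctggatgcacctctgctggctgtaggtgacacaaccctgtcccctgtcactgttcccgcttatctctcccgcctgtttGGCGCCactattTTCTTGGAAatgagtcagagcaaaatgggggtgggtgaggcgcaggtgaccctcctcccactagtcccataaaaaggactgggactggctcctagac
Hamp2, chr7:30924182-30924431, minus strand: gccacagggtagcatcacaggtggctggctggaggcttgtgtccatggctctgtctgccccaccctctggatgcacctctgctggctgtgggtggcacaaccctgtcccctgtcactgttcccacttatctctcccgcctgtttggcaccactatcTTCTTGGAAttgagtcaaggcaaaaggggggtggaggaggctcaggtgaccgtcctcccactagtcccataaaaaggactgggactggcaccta
The promoter of Hamp held GGCGCC, whose first base lies at -109 from the start, and TTCNNNGAA at -97, without overlap; that of Hamp2 held TTCNNNGAA at -94 and no GGCGCC. Searched on both strands, GGCGCC occurred in 11.9% and TTCNNNGAA in 8.30% of all 32851 promoters in the table, whose windows run on past the start. Promoters of 8 members were in the table. Besides Hamp, GGCGCC occurred at 1 of 4 starts of Gpx4 (-23) and 1 of 2 starts of Tfrc (-89). Another motif, TGACNNNGC, the antioxidant response element core, occurred in 12.4% of promoters and in none of those 8 members.

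Of 23 genes that act on hepcidin, 7 rose and 8 fell in Cyp1a2_CA, and of 22 tested 6 rose and 7 fell in Gls2_CA. Over all genes tested 38.3% rose and 32.7% fell in Cyp1a2_CA, and 39.2% and 34.0% in Gls2_CA, so these counts carry little by themselves. The ligands fell: Bmp2, made by endothelial cells in mouse liver, had 2.37, 13.3 and 27.0 CPM in the lowest, median and highest Cyp1a2_CA animal, 6.57 to 17.8 CPM in Gls2_CA and 23.5 to 27.4 CPM in WT, with log2 fold changes of -1.07 (edgeR adjusted p = 0.0128) and -1.26 (edgeR adjusted p = 0.000390). Bmp6, the ligand that responds to liver iron, fell by 1.51 in Cyp1a2_CA (edgeR adjusted p = 0.000535) and by 1.05 in Gls2_CA (edgeR adjusted p = 0.00363), and the sinusoidal endothelial markers given above were low in the same tumours; their part in this was not tested. Receptors moved in both directions: the type I receptor Acvr1 rose by 1.02 in Cyp1a2_CA and 0.79 in Gls2_CA, whereas the type II receptors fell, Acvr2a with log2 fold changes of -0.74 and -1.11 and Bmpr2, named after its values were seen, with -0.56 and -0.42. The call of Bmpr2 in Gls2_CA was lost with no filter on low counts (-0.34, edgeR adjusted p = 0.0922). It was also lost with a filter of at least 5 CPM (-0.44, edgeR adjusted p = 0.0507) and with the first library of each animal (-0.37, edgeR adjusted p = 0.062). Of the signal transducers, Smad5 rose by 1.38 in both, and Smad4, the shared partner of receptor-activated SMADs, by 0.85 and 0.70. The type I receptor Bmpr1a rose by 0.84 and 0.63, a call lost in Gls2_CA with upper-quartile scaling or with the offset. Of the targets of BMP signalling, 2 fell in Cyp1a2_CA, Atoh8 at -0.90 (edgeR adjusted p = 0.0246) and the inhibitor Smad7 at -0.79 (edgeR adjusted p = 0.0263). In Gls2_CA Atoh8 fell by 1.18 and Smad7 had -0.67 (edgeR adjusted p = 0.124), which was -1.32 without GAB235 (edgeR adjusted p = 4.33e-06). Id1, another target, ranged from 0.834 to 24.03 CPM in Cyp1a2_CA with a median of 2.45, reached 46.2 CPM in Gls2_CA and 37.3 CPM in Cyp1a2_C, and was 2.43 to 4.23 CPM in WT. Id1 did not pass in either comparison (log2 fold change 0.95 and 1.69). Without the animals with high Ttn it was -0.91 in Cyp1a2_CA (edgeR adjusted p = 0.0244) and -0.95 in Gls2_CA (edgeR adjusted p = 0.00592). With the offset for exon length and GC content Id1 was called higher in Gls2_CA (2.6, edgeR adjusted p = 0.0383). The interleukin 6 receptor Il6ra fell to 18.8 to 41.4 CPM in Cyp1a2_CA and 26.5 to 56.4 CPM in Gls2_CA, against 81.6 to 126 CPM in WT, with log2 fold changes of -1.59 and -1.34. Among other genes of the list, Erfe was called higher in Cyp1a2_CA, a call lost without the high-Ttn animals. Without GAB235, Hjv and Tmprss6 were called higher and Smad1 lower in Gls2_CA, and with it none of them was called.

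Transferrin, the plasma carrier that hepatocytes secrete, had the next largest fall in the counts as deposited. Trf (chr9:103204001-103230444, minus strand) had 1255, 2520 and 12288 CPM in the lowest, median and highest Cyp1a2_CA animal, and 2482, 2844, 675, 3582 and 3178 CPM in GAB18, GAB229, GAB235, GAB242 and GAB294, against 9911, 11002 and 13122 CPM in the lowest, median and highest WT liver. The Cyp1a2_CA animal CAB52, at 12288 CPM, lay inside the WT range, and the other 8 lay below it, with the next highest at 4510 CPM. Trf fell by 1.73 on the log2 scale in Cyp1a2_CA (SE 0.42, edgeR adjusted p = 0.00176), and its log2 fold change was -2.25 in Gls2_CA (SE 0.35, edgeR adjusted p = 0.000118). Without CAB52 the log2 fold change in Cyp1a2_CA was -2.26. Hepatocyte markers were lower in the same tumours, 7 of 9 in Cyp1a2_CA and 6 of 9 in Gls2_CA (7 there with upper-quartile scaling). Over all genes tested 32.7% were lower in Cyp1a2_CA and 34.0% in Gls2_CA. The part of hepatocyte content in the fall of Trf and Hamp was not tested.

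The 2 transferrin receptors differed in direction. Tfrc (chr16:32608920-32632794, plus strand), the receptor of most cells that take up iron, had 5.23, 18.5 and 34.2 CPM in the lowest, median and highest Cyp1a2_CA animal, and 24.1, 25.9, 8.30, 44.1 and 12.0 CPM in GAB18, GAB229, GAB235, GAB242 and GAB294, against 35.7, 43.9 and 55.0 CPM in WT. Every Cyp1a2_CA animal and 4 of 5 Gls2_CA animals were below the lowest WT liver, and GAB242 was inside the WT range. In Cyp1a2_CA the tumours lay wholly below WT for 20.8% of the genes tested. Tfrc fell by 1.36 on the log2 scale in Cyp1a2_CA (SE 0.32, edgeR adjusted p = 0.00134) and by 1.08 in Gls2_CA (SE 0.35, edgeR adjusted p = 0.0145), and this call held with the offset (-1.62 and -1.33) and without the high-Ttn animals (-1.14 and -0.87). Tfr2 (chr5:137569840-137587481, plus strand), which hepatocytes use to sense transferrin, had 291, 358 and 554 CPM in the lowest, median and highest Cyp1a2_CA animal, and 449, 388, 104, 383 and 640.5 CPM in GAB18, GAB229, GAB235, GAB242 and GAB294, against 267, 287 and 299 CPM in WT. All but 1 animal of each tumour group exceeded the highest WT liver; the exceptions were CAB225, inside the WT range, and GAB235, below it, both with high Ttn. The rise of Tfr2 was small, 0.35 in Cyp1a2_CA (SE 0.14, edgeR adjusted p = 0.0295), and the value in Gls2_CA was 0.34 (SE 0.31, edgeR adjusted p = 0.334). Tfr2 was the member whose direction depended on the processing: with the offset it was -0.10 and -0.12, neither called, and without the high-Ttn animals it was 0.42 and 0.58, both called. Read counts of Tfr2 were 11.7 to 55.7 times those of Tfrc in Cyp1a2_CA and 8.67 to 53.4 times in Gls2_CA, against 0.744 times in Cyp1a2_C and 5.11 to 7.50 times in WT, a ratio chosen after the values were seen and not tested.

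Ferroportin, the exporter that hepcidin targets, changed little. Slc40a1 (chr1:45908068-45926523, minus strand) had 39.99, 54.9 and 88.0 CPM in the lowest, median and highest Cyp1a2_CA animal, and 77.5, 77.6, 21.3, 73.4 and 55.4 CPM in GAB18, GAB229, GAB235, GAB242 and GAB294, against 70.1, 76.3 and 90.7 CPM in WT. In each tumour group 3 animals were inside the WT range and the others were below it. The log2 fold change was -0.45 in both groups, called in Cyp1a2_CA (SE 0.18, edgeR adjusted p = 0.0372) and not in Gls2_CA (SE 0.26, edgeR adjusted p = 0.127, 95% interval -1.01 to 0.10). The call in Cyp1a2_CA was lost in 10 of the 15 fits that left out 1 animal. With its 9000 exon bases Slc40a1 is the longest of the members, and with the offset it fell by 1.13 in Cyp1a2_CA (edgeR adjusted p = 0.000293) and by 1.12 in Gls2_CA (edgeR adjusted p = 0.00496). Without the high-Ttn animals it was -0.34 (edgeR adjusted p = 0.0888) and -0.24 (edgeR adjusted p = 0.0760). Kupffer cells, which recycle haem iron, also express ferroportin. Of their 9 markers 4 fell in Cyp1a2_CA, while 5 fell and 2 (Cd68 and Csf1r) rose in Gls2_CA. Over all genes tested 32.7% fell in Cyp1a2_CA, and 34.0% fell and 39.2% rose in Gls2_CA. With upper-quartile scaling 6 of the 9 markers fell in Cyp1a2_CA, and 5 fell and 0 rose in Gls2_CA. The part of these cells in the values of Slc40a1 was not tested.

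The 2 ferritin chains, whose 5′ hairpins are shown above, moved in opposite directions. Fth1 (chr19:9980598-9985098, plus strand), the chain with ferroxidase activity, had 598, 1072 and 1805 CPM in the lowest, median and highest Cyp1a2_CA animal, and 1435, 1333, 453, 1520 and 1197 CPM in GAB18, GAB229, GAB235, GAB242 and GAB294, against 598, 641 and 667 CPM in WT. In Fth1, 7 of 9 Cyp1a2_CA and 4 of 5 Gls2_CA animals exceeded every WT liver, and the remaining 3 were the animals with high Ttn. Fth1 rose by 0.63 on the log2 scale in Cyp1a2_CA (SE 0.23, edgeR adjusted p = 0.0211) and by 0.79 in Gls2_CA (SE 0.24, edgeR adjusted p = 0.0113). Ftl1 (chr7:45457944-45459884, minus strand), the chain that aids the mineral core, had 326, 764 and 1479 CPM in the lowest, median and highest Cyp1a2_CA animal, and 944, 827, 289, 956 and 666 CPM in GAB18, GAB229, GAB235, GAB242 and GAB294, against 1083, 1110 and 1414 CPM in WT. Only CAB228, at 1479 CPM, lay above the WT range, and every other tumour animal of both groups lay below it. In Gls2_CA the tumours lay wholly below WT for 26.0% of the genes tested. Ftl1 fell by 0.70 in Cyp1a2_CA (SE 0.26, edgeR adjusted p = 0.0241) and by 0.79 in Gls2_CA (SE 0.26, edgeR adjusted p = 0.0158). The chains had 3469 and 1340 exon bases, and with the offset Ftl1 was -0.43 (edgeR adjusted p = 0.175) and -0.47 (edgeR adjusted p = 0.0835), while Fth1 stayed called at 0.72 and 0.93. With upper-quartile scaling Fth1 was 0.40 (edgeR adjusted p = 0.112) and 0.56 (edgeR adjusted p = 0.0542).

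A count ratio within an animal does not depend on library scaling. It is not adjusted for exon length or GC content, and Fth1 had 3469 exon bases and Ftl1 1340. The count of Fth1 over that of Ftl1 was 0.894 to 1.83 in Cyp1a2_CA with a median of 1.44, 1.52 to 1.80 in Gls2_CA with a median of 1.59, and 3.10 in Cyp1a2_C, against 0.456 to 0.613 in WT with a median of 0.562. The lowest tumour ratio exceeded the highest WT ratio, so the shift toward the heavy chain was seen in all 15 tumour animals, those with high Ttn included. The ratio was chosen after the values were seen and carries no test, and it shows unequal change of the 2 transcripts. How often ratios of other pairs of genes separate tumours from WT in this way was not counted.

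**Figure D2:**
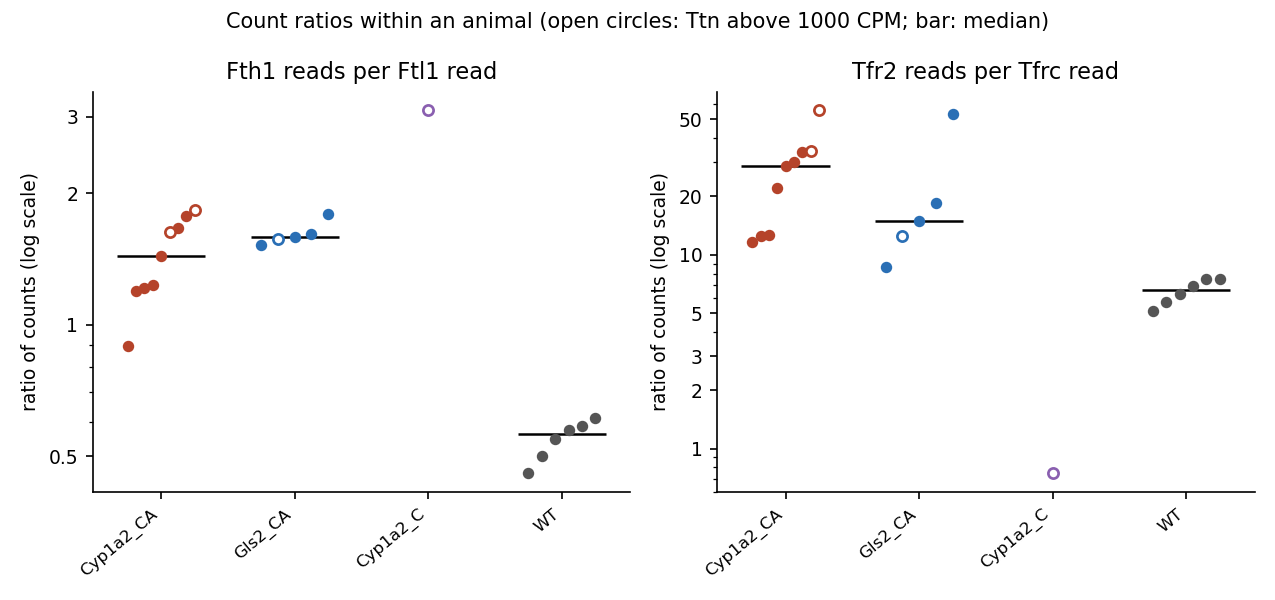
Count ratios within each animal, on log axes, of Fth1 over Ftl1 and of Tfr2 over Tfrc, in Cyp1a2_CA, Gls2_CA, Cyp1a2_C and WT, with medians as lines. The Fth1 over Ftl1 ratio was above 0.613, the highest WT value, in every tumour animal, while the Tfr2 over Tfrc ratio was above the WT livers in Cyp1a2_CA and Gls2_CA and below them in Cyp1a2_C.

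Of the defenders against ferroptosis, Gpx4 (chr10:80047166-80056439, plus strand), the selenoprotein that reduces lipid hydroperoxides within membranes, had 44.7, 118 and 181 CPM in the lowest, median and highest Cyp1a2_CA animal, and 237, 207, 60.0, 224 and 133 CPM in GAB18, GAB229, GAB235, GAB242 and GAB294, against 56.7, 63.7 and 72.6 CPM in WT. Of the Cyp1a2_CA animals, 7 exceeded every WT liver and 2, CAB44 and CAB225, were below the lowest; 4 Gls2_CA animals exceeded every WT liver and GAB235 was inside the WT range. Gpx4 rose by 0.65 on the log2 scale in Cyp1a2_CA (SE 0.24, edgeR adjusted p = 0.0229) and by 1.32 in Gls2_CA (SE 0.27, edgeR adjusted p = 0.000847). Without the high-Ttn animals the rise was 0.84 and 1.53, and upper-quartile scaling ended the call in Cyp1a2_CA (0.43, edgeR adjusted p = 0.116).

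Aifm2 (chr10:61715263-61739260, plus strand), which regenerates ubiquinol as a radical trap independently of glutathione, had 22.01, 45.6 and 118 CPM in the lowest, median and highest Cyp1a2_CA animal, and 62.0, 79.7, 83.9, 66.5 and 53.6 CPM in GAB18, GAB229, GAB235, GAB242 and GAB294, against 17.1, 20.4 and 24.4 CPM in WT. All 5 Gls2_CA animals and 8 of 9 Cyp1a2_CA animals exceeded every WT liver, and tumours lay wholly above WT for 29.9% of the genes tested in Gls2_CA and 23.4% in Cyp1a2_CA. CAB52 was inside the WT range, and CAB145, at 118 CPM, stood above the next animal at 54.6 CPM. Aifm2 rose by 1.19 in Cyp1a2_CA (SE 0.29, edgeR adjusted p = 0.00176) and by 1.64 in Gls2_CA (SE 0.16, edgeR adjusted p = 1.92e-06). Unlike the other risen members, Aifm2 was above the WT livers in all 3 Cyp1a2_CA and Gls2_CA animals with high Ttn.

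Acsl4 (chrX:142317993-142390535, minus strand), whose product activates arachidonic acid for membrane lipids and so promotes ferroptosis, had 93.3, 462 and 755 CPM in the lowest, median and highest Cyp1a2_CA animal, and 381, 223, 132, 861 and 468 CPM in GAB18, GAB229, GAB235, GAB242 and GAB294, against 113, 148 and 191 CPM in WT. As for Gpx4, 7 Cyp1a2_CA and 4 Gls2_CA animals exceeded every WT liver, CAB44 and CAB225 were below the lowest, and GAB235 was inside the WT range. Acsl4 rose by 1.42 in Cyp1a2_CA (SE 0.41, edgeR adjusted p = 0.00581) and by 1.37 in Gls2_CA (SE 0.37, edgeR adjusted p = 0.00578). Among the libraries of GAB242, Acsl4 had 659 CPM in S, 537 in M and 1341 in L. Acsl4 thus rose in the same tumour groups as Gpx4 and Aifm2.

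**Figure D3:**
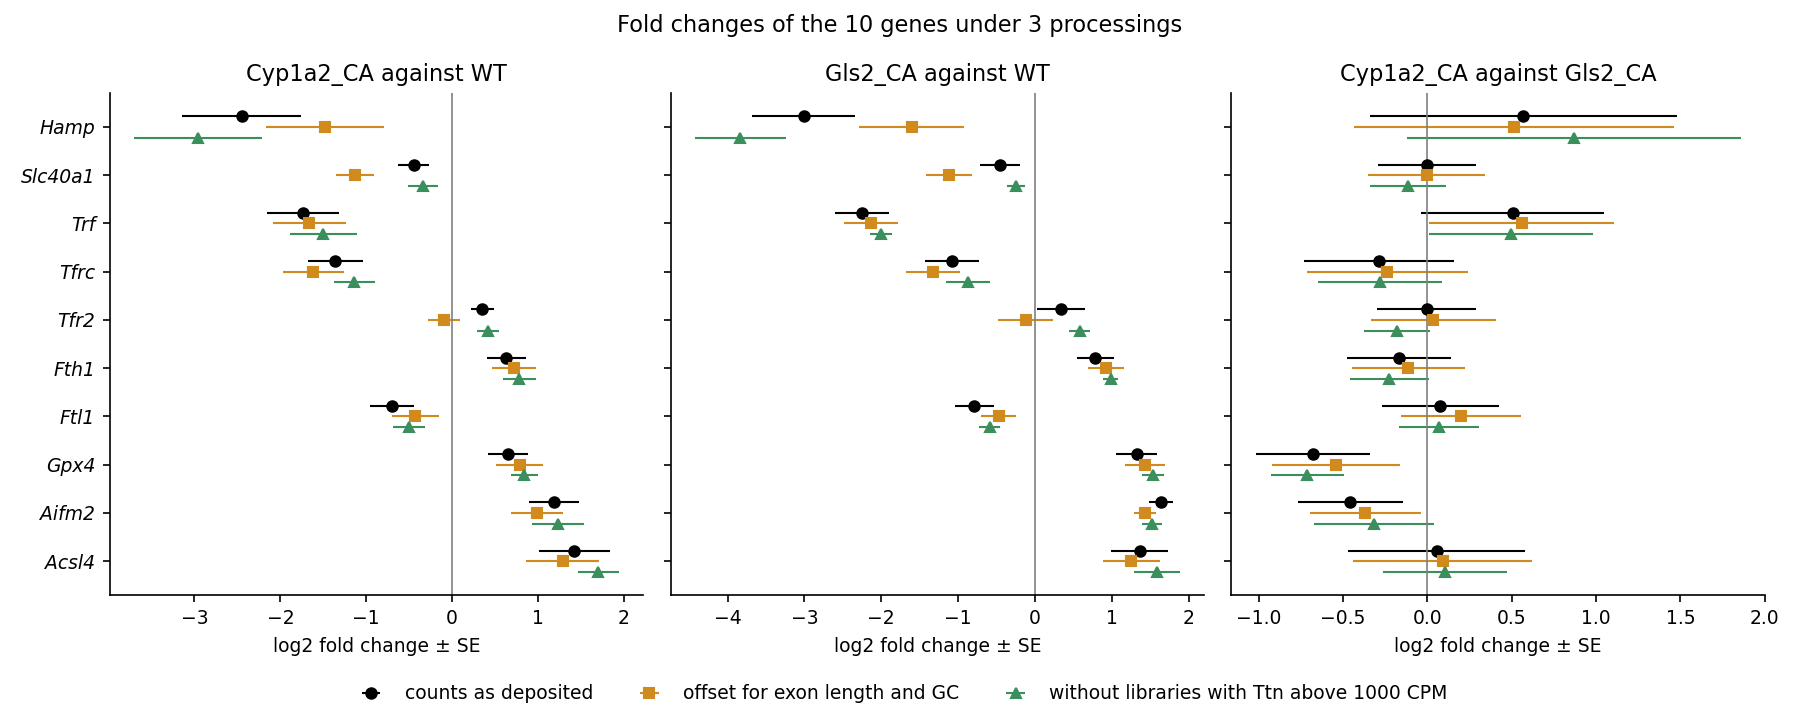
Log2 fold change of each member, with bars of 1 SE, in Cyp1a2_CA against WT, Gls2_CA against WT and Cyp1a2_CA against Gls2_CA, for the counts as deposited, with the offset for exon length and GC content, and without libraries with Ttn above 1000 CPM. Against WT, Hamp, Trf and Tfrc stayed below 0 and Aifm2, Acsl4, Gpx4 and Fth1 above 0 in each of these fits, whereas Tfr2 changed sign with the offset.

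Tumours of the 2 drivers were then compared with each other, which asks whether the promoter used to start the tumour, central or portal, goes with a difference in these genes. No member passed in Cyp1a2_CA against Gls2_CA, and 0 of 17129 genes did (0.0%; edgeR), with 554 at an unadjusted p under 0.05, 20 genes called by DESeq2 and 10 by limma-voom. The 2 groups overlapped for every member, and only 0.0876% of the genes separated them completely, 0.0409% higher and 0.0467% lower in Cyp1a2_CA. The smallest unadjusted p among the members was that of Gpx4, with 44.7 to 181 CPM in Cyp1a2_CA against 60.0 to 237 CPM in Gls2_CA (log2 fold change -0.68, 95% interval -1.41 to 0.05, unadjusted p = 0.0648, edgeR adjusted p = 1.00). The interval for Hamp, -1.38 to 2.52 around 0.57, left room for a several-fold difference either way. Those of Acsl4 (-1.07 to 1.18), Tfrc (-1.24 to 0.67) and Trf (-0.66 to 1.67) were also wide. Aifm2 had an interval of -1.12 to 0.21. The intervals were -0.63 to 0.62 for Slc40a1, -0.64 to 0.63 for Tfr2, -0.84 to 0.50 for Fth1 and -0.67 to 0.82 for Ftl1, and for these 4 genes a difference as large as the change of the same gene against WT lay inside the interval.

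The single Cyp1a2_C library, with no replicate and no test, had low values of nearly every member. Hamp had 5.11 CPM (95% Poisson interval 4.53 to 5.74, counting error only), Trf 135 CPM (132 to 138), Tfr2 8.91 CPM (8.14 to 9.73) and Gpx4 28.3 CPM (26.9 to 29.7). Acsl4 had 40.1 CPM (38.4 to 41.8), Tfrc 12.0 CPM (11.1 to 12.9), Slc40a1 21.1 CPM (19.9 to 22.3), Ftl1 179 CPM (176 to 183) and Fth1 556 CPM (550 to 562). These 9 members lay below the lowest WT liver, and Aifm2, at 22.2 CPM (20.9 to 23.4), lay inside the WT range. Of 14381 genes, 90.2% lay outside the WT range in this library, 43.4% above and 46.8% below. Its hepatocyte markers, at a summed 545 CPM, were the lowest of any animal, and it had high Ttn and the mixed Xist and Y-linked signal given above.

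Wider lists of iron and ferroptosis genes, drawn up by function, were counted in the same fits. Of 108 genes tested, 35 rose and 36 fell in Cyp1a2_CA (median log2 fold change 0.15), and of 101 tested 30 rose and 31 fell in Gls2_CA (median -0.01). Over all genes tested the shares were 38.3% higher and 32.7% lower in Cyp1a2_CA, and 39.2% and 34.0% in Gls2_CA. In the counts as deposited the lists as a whole therefore lay near the background. The same shares stand beside the counts of each list below, and no list was tested as a set. With the offset the split was 26 higher and 40 lower in Cyp1a2_CA and 25 and 43 in Gls2_CA, beside 33.8% and 33.3% of all genes in Cyp1a2_CA and 35.1% and 34.5% in Gls2_CA. There more of the listed genes fell than rose, while the shares over all genes were nearly equal. With upper-quartile scaling the split was 28 and 38 of 108 tested in Cyp1a2_CA, beside 33.2% and 37.2% of all genes. In Gls2_CA it was 23 and 36 of 101 tested, beside 34.2% and 39.0% of all genes.

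Of 17 genes of iron uptake and export, 5 rose and 7 fell in Cyp1a2_CA, and 6 rose and 6 fell in Gls2_CA. Slc11a2, the ferrous iron importer DMT1, rose to 31.0 to 74.4 CPM in Cyp1a2_CA and 33.2 to 76.4 CPM in Gls2_CA, against 15.8 to 20.1 CPM in WT, by 1.67 and 1.81 on the log2 scale. Pcbp1 and Pcbp2, chaperones that hand iron to ferritin, moved apart. Pcbp1 fell to 32.3 to 46.4 CPM in Cyp1a2_CA and 24.3 to 48.3 CPM in Gls2_CA, against 114 to 124 CPM in WT (-1.62 and -1.84), whereas Pcbp2 rose to 1066 to 2037 CPM in Cyp1a2_CA and 1162 to 2142 CPM in Gls2_CA, against 133 to 148 CPM in WT (3.23 and 3.35). The Pcbp2 groups did not come near each other, with 1029 CPM in Cyp1a2_C as well. Tumours lay wholly above WT for 23.4% of the genes tested in Cyp1a2_CA and 29.9% in Gls2_CA. The haem scavenger Hpx, secreted by hepatocytes, fell, with log2 fold changes of -2.25 and -2.71. The ferroxidase Cp rose by 1.17 (edgeR adjusted p = 0.00185) and 0.87 (edgeR adjusted p = 0.0188), a call lost with the offset (0.43 and 0.14).

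Of 5 genes of iron sensing and ferritin turnover, 2 rose and 1 fell in Cyp1a2_CA, and 1 rose and 1 fell in Gls2_CA. Aco1, which is iron regulatory protein 1 when it lacks its iron-sulphur cluster and a cytosolic aconitase when it holds it, had 38.4 to 91.0 CPM in Cyp1a2_CA, 32.5 to 79.4 CPM in Gls2_CA and 12.8 CPM in Cyp1a2_C, against 246 to 307 CPM in WT. Its log2 fold change was -2.22 in Cyp1a2_CA (edgeR adjusted p = 5.11e-09) and -2.30 in Gls2_CA (edgeR adjusted p = 6.43e-07). Ncoa4, the receptor that takes ferritin to the lysosome, was 0.55 (edgeR adjusted p = 0.0226) and 0.25 (edgeR adjusted p = 0.206), and it turned negative with the offset (-0.28 and -0.61). With the offset 0 of the 5 rose in either group, 4 fell in Cyp1a2_CA and 5 in Gls2_CA. Of 18 genes of mitochondrial iron, haem and iron-sulphur clusters, 5 rose and 10 fell in Cyp1a2_CA, and 4 rose and 9 fell in Gls2_CA. The deepest falls named were Alas1, the rate-limiting enzyme of haem synthesis in liver (-3.43 and -3.18), and Cisd1, an iron-sulphur protein of the outer mitochondrial membrane (-2.33 and -2.53).

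Of 24 genes of ferroptosis defence, 13 rose and 6 fell in Cyp1a2_CA (median log2 fold change 0.65), and of 22 tested 10 rose and 5 fell in Gls2_CA (median 0.41). Over all genes tested 38.3% rose and 32.7% fell in Cyp1a2_CA (median 0.17), and 39.2% and 34.0% in Gls2_CA (median 0.14). Slc7a11, the cystine importer that feeds glutathione synthesis, had 0.0571, 3.48 and 326 CPM in the lowest, median and highest Cyp1a2_CA animal, 2.85, 8.07 and 286 CPM in Gls2_CA and 8.49 CPM in Cyp1a2_C, and was at most 0.128 CPM in WT, under 3 counts in a library. Gclc, the catalytic subunit of the first step of glutathione synthesis, rose by 1.64 and 1.70, to 200.04 to 1232 CPM in Cyp1a2_CA and 102 to 1378 CPM in Gls2_CA, against 130 to 225 CPM in WT. Nqo1, a quinone reductase and target of Nfe2l2, rose by 1.56 (edgeR adjusted p = 0.0224) and 2.21 (edgeR adjusted p = 0.00129). The transcription factor Nfe2l2 itself rose by 0.58 (edgeR adjusted p = 0.0232) and 0.44 (edgeR adjusted p = 0.0334). The call of Nfe2l2 was lost in both groups with upper-quartile scaling. Thinning tumour reads to WT depth ended it in both (0.47, edgeR adjusted p = 0.055, and 0.36, edgeR adjusted p = 0.0762). A filter of at least 5 CPM ended it in Cyp1a2_CA (edgeR adjusted p = 0.0582). In Gls2_CA it was lost with the first library of each animal (edgeR adjusted p = 0.0662). It was lost there as well with 3 groups in 1 fit (edgeR adjusted p = 0.0955). Secisbp2, which reads the selenocysteine insertion element that Gpx4 translation needs, rose to 43.5 to 67.6 CPM in Cyp1a2_CA and 35.7 to 52.4 CPM in Gls2_CA, against 17.4 to 21.6 CPM in WT (1.28 and 1.12). Gch1, the first enzyme of tetrahydrobiopterin synthesis, was among the genes of the defence list that fell, to 6.88 to 27.6 CPM in Cyp1a2_CA and 6.72 to 37.6 CPM in Gls2_CA, against 92.6 to 121 CPM in WT (-2.71 and -2.06). The others of that list that fell were Gsr, Dhodh and Vkorc1l1 in both groups, Gclm and Sepsecs in Cyp1a2_CA, and Scd1 in Gls2_CA. Of 13 genes of ferroptosis promotion 2 rose and 3 fell in Cyp1a2_CA, and of 12 tested 2 rose and 2 fell in Gls2_CA. Keap1 was among those that rose in both groups, a call lost in Gls2_CA with upper-quartile scaling. The glutathione-degrading enzyme Chac1 fell in both groups, by 1.14 (edgeR adjusted p = 0.0189) and by 2.60 (edgeR adjusted p = 5.91e-05). With the offset the call of Chac1 in Cyp1a2_CA was lost (-0.93, edgeR adjusted p = 0.0585).

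Relatives of Acsl4 and Gpx4 were counted in the same way. Of 4 other long-chain acyl-CoA synthetases tested in Cyp1a2_CA, Acsl3 rose by 0.71 and Acsl5 by 0.93; of 3 tested in Gls2_CA, Acsl3 rose by 0.78, and Acsl5 had 0.51 (edgeR adjusted p = 0.128); the calls of Acsl3 were lost with upper-quartile scaling. Of 5 other glutathione peroxidases tested in Cyp1a2_CA none rose and 1 fell, and of 3 in Gls2_CA 1 rose and 1 fell. The riser was the secreted peroxidase Gpx3, which had 1.23, 2.60 and 352 CPM in the lowest, median and highest Cyp1a2_CA animal and 1.79, 3.21 and 184 CPM in Gls2_CA, against 4.76, 5.64 and 7.95 CPM in WT. Its log2 fold change in Gls2_CA was 2.79 (edgeR adjusted p = 0.0444), and without GAB235 it was -0.82 (edgeR adjusted p = 0.0289). The call of the rise was also lost with upper-quartile scaling (edgeR adjusted p = 0.0599) and no filter on low counts (edgeR adjusted p = 0.0895). It was lost as well with every library a replicate, with 3 groups in 1 fit, with DESeq2 and with limma-voom. Gpx1, the abundant cytosolic peroxidase of liver and a selenoprotein like Gpx4, fell in both, to 157 to 518 CPM in Cyp1a2_CA and 107 to 464 CPM in Gls2_CA, against 1183 to 1331 CPM in WT (-1.998 and -2.02).

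**Figure D4:**
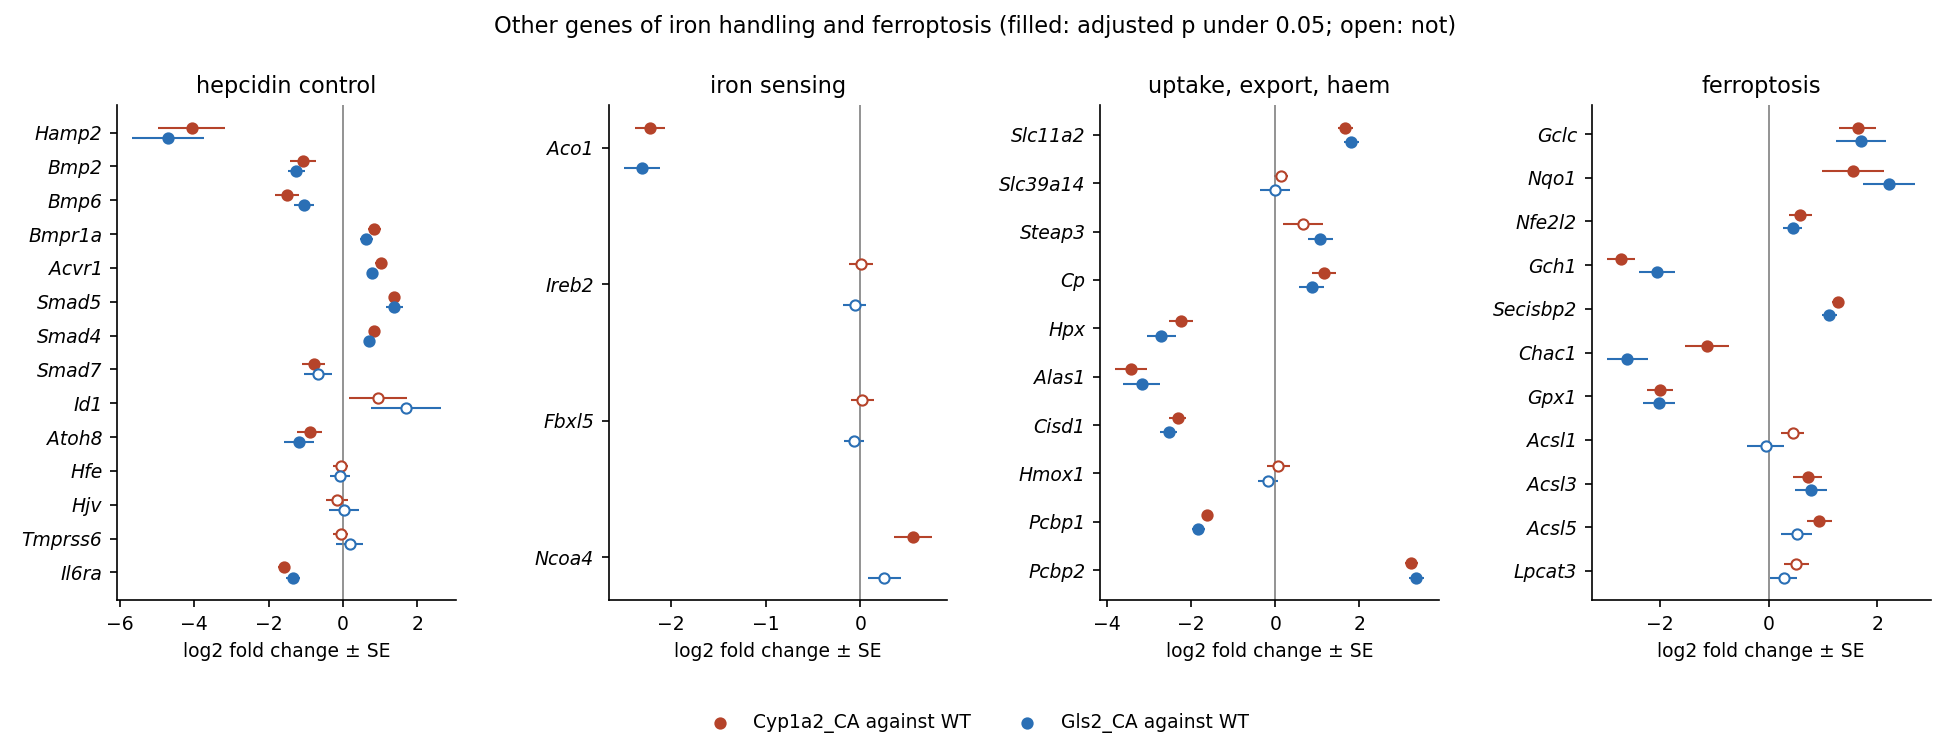
Log2 fold change against WT, with bars of 1 SE, of genes around the 10 members in Cyp1a2_CA and Gls2_CA, grouped by role; filled symbols passed an adjusted p under 0.05. Slc7a11, nearly absent from WT, is not drawn. Pcbp2 lay at 3.23 and 3.35, Alas1 lay at -3.43 and -3.18, and Gpx1 at -1.998 and -2.02.

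Levels of different genes were compared per kilobase of merged exon. Trf was the highest member in every replicated group, with a mean of 1076 CPM per kilobase in Cyp1a2_CA, 769 in Gls2_CA and 3383 in WT. Hamp ranked 2 in WT at 1348 CPM per kilobase and 4 in both tumour groups, at 258 in Cyp1a2_CA and 173 in Gls2_CA, below Ftl1 (572 and 549) and Fth1 (300.1 and 342). Gpx4 averaged 61.6 CPM per kilobase in Cyp1a2_CA, 100.0 in Gls2_CA and 37.1 in WT, and Acsl4 averaged 78.2 in Cyp1a2_CA, 76.4 in Gls2_CA and 27.5 in WT. The low end was held by Slc40a1 (6.67, 6.78 and 8.62 CPM per kilobase in Cyp1a2_CA, Gls2_CA and WT), Tfrc (2.99, 3.70 and 7.27) and Aifm2 (12.2, 16.8 and 5.08), so Aifm2 was lowest in WT and Tfrc lowest in both tumour groups. Neighbours in this order often overlapped between animals, and some orders turned round when the length of the principal transcript was used. In Gls2_CA these were Fth1 and Ftl1 (795 and 761) and Gpx4 and Hamp (180 and 173). In Cyp1a2_CA they were Gpx4 and Acsl4 (111 and 80.1) and Slc40a1 and Aifm2 (17.8 and 16.2).

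Over the 11 tumour animals without high Ttn, the gene most like each of 9 members by Spearman correlation of log2 CPM among 13751 genes was Rcn1 for Hamp (0.964), Fam83g for Trf (0.918), Wdr75 for Tfrc (0.936), Anks1 for Tfr2 (0.936) and Zfyve26 for Slc40a1 (0.936). It was Clasp1 for Fth1 (0.982), Ptpmt1 for Ftl1 (0.936), Slc45a3 for Aifm2 (0.973) and Wbp5 for Acsl4 (0.945). These are the highest of many correlations over few animals of 2 pooled groups that share scaling and differ in tissue makeup, and they are given as a description.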

How the data were processed

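The authors deposited raw counts, 1 whole number per gene symbol and library. Per the labels' protocols, RNA from frozen tissue was extracted with TRIzol and a PureLink column, DNase-treated and converted to libraries by Nugen Ovation chemistry. The build was mm10, per the submitters' processing notes; for the aligner, counter, strand setting and annotation nothing is given in the sources used here, so reads shared by near-identical or overlapping genes are uncertain. Groups came from the genotype labels, and animal numbers from the titles. Counts were summed over libraries with 1 number (CAB28 with 2, GAB242 and GAB294 with 3 each), and p-values therefore reflect only how animal numbers vary. No pair of libraries was as close as sampling noise.

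Fits held only the groups compared and used edgeR 4.0.16 under R 4.3.3 (filterByExpr, TMM, robust quasi-likelihood), with Benjamini-Hochberg adjustment over all genes and a threshold of 0.05. Intervals of fold changes use the moderated degrees of freedom; those of Cyp1a2_C are exact Poisson intervals and cover counting error only. High Ttn means over 1000 CPM. Exon length and GC content came from GENCODE M21 by symbol, matched for 26772 of 35976 entries (74.4%); of 175 listed symbols 174 were found, 3 by an older symbol. Of 9 entries for near-identical copies, 1 had counts (Hamp2). Alternatives tried were scaling by RLE or upper-quartile factors, 2 other filters, every library or the first library of each animal as the replicate, 3 groups in 1 fit, DESeq2 1.42.0, limma-voom (limma 3.58.1), thinning, fits without high-Ttn libraries, an offset for length and GC, a title-letter covariate, and leaving out each animal; the offset together with leaving out high-Ttn libraries was added after seeing the data. The edgeR fit was tested on simulated counts with known changes and the same range of spread for tumours and WT. Real tumours varied more among themselves than WT livers, and the alternatives were not simulated. The members, lists, rules and alternatives were chosen with earlier results of these data known. The text names part of the genes its rule allows: the members, partners listed by name, and the 3 of each list with the smallest p. Genes named outside this rule include Acvr1, Bmpr1a, Bmpr2, Smad1, Alas1, Gclm, Gsr, Dhodh, Sepsecs and Scd1. A further result is not reported here.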

Additional observations from a re-analysis of the deposited data

Results flagged for a closer look

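In all, 2 values stood apart from the rest of their group by the gap to the nearest animal relative to the range of the group. Aifm2 was 118 CPM in the Cyp1a2_CA animal CAB145, with the next animal at 54.6 CPM. Trf was 12288 CPM in the Cyp1a2_CA animal CAB52, with the next at 4510 CPM. Chance gives such a gap in about 1 of 20 groups, and 30 groups were examined. Leaving out CAB52 moved the log2 fold change of Trf in Cyp1a2_CA against WT to -2.26.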

How the results depend on the processing

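Of the members' fold changes under the alternatives other than leaving out an animal, 115 of 130 against WT in Cyp1a2_CA and 120 of 130 in Gls2_CA kept their direction and their call. The members called in Cyp1a2_CA against WT were 5 higher and 5 lower, and became 2 higher with upper-quartile factors, 3 lower with no filter on low counts and 3 lower with the offset for exon length and GC. Leaving out each animal gave 4 to 5 higher and 3 to 5 lower there (3 without WT replicate 1), 4 to 5 higher and 4 lower in Gls2_CA against WT, and 0 in Cyp1a2_CA against Gls2_CA. The pathway lists gave 33 to 37 higher and 32 to 38 lower in Cyp1a2_CA, and 27 to 37 higher and 30 to 35 lower in Gls2_CA. Upper-quartile factors put the median log2 fold change of all genes at -0.05 in Cyp1a2_CA and -0.09 in Gls2_CA, beside 0.17 and 0.14 with TMM.

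Values that turned round against WT were, in Cyp1a2_CA, Tfr2 at -0.10 (offset), Id1 at -0.41 (limma-voom), -0.91 (without high-Ttn libraries) and -0.41 (with the offset as well, added after seeing the data), Ncoa4 at -0.28 (offset) and -0.13 (both together), and Gpx3 at -1.37, -1.47 and -1.20 under the settings given for Id1. In Gls2_CA they were Tfr2 at -0.12 (offset), Id1 at -0.64, -0.95 and -0.44 under the same 3 settings as above, Ncoa4 at -0.61 and -0.49, and Gpx3 at -0.60, -0.82 and -0.61. Leaving out each animal, Id1 in Gls2_CA ranged from -0.95 to 1.99 and Gpx3 from -0.82 to 3.10. Between Cyp1a2_CA and Gls2_CA, where no member was called, Acsl4 was -0.28 with every library a replicate, -0.22 with limma-voom and -0.34 with the title letter as a covariate; Ftl1 was -0.03 and -0.17, Tfr2 0.04 with the offset, Slc40a1 0.11 and Hamp -0.01 with the letter, and Trf -0.02 with limma-voom. Leaving out each animal there gave -0.18 to 0.18 for Acsl4 (0.52 without GAB242), -0.13 to 0.18 for Ftl1 (0.19 without GAB242), -0.22 to 0.10 for Slc40a1 (0.02 without CAB28, 0.07 without GAB242), -0.25 to 0.23 for Tfr2, -0.51 to 0.10 for Tfrc and -0.02 to 0.61 for Trf (0.66 without GAB242). The cause of these changes was not tested.

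The calls of Slc40a1 and Tfr2 in Cyp1a2_CA were the least stable, Tfr2 being lost in 4 of 15 fits that left out an animal (CAB26, WT replicates 1, 3 and 6), and the call of Ftl1 was lost without WT replicate 1 (-0.64, edgeR adjusted p = 0.0536) and with no filter in both groups (-0.65 and -0.68). WT libraries were shallower than tumour libraries, and 1 Cyp1a2_C library allows no test. No paired analysis was possible because the tumour titles carry no replicate numbers shared with another group.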
